A study of Mus musculus with 24 samples.

Results

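Total RNA of mouse peripheral blood mononuclear cells (PBMCs) was compared between the libraries whose treatment is labelled Y and those whose treatment is labelled ct. The members are the 3 Y and 3 ct libraries, 6 of the 24 libraries of the series. A filter on counts over all 9 PBMC libraries kept 11635 of the 55335 genes listed, and over the 6 libraries alone it kept 11077. The 3 further PBMC libraries, labelled WT as their treatment, entered the same fit and were used to ask whether a difference from ct was also a difference from WT. All 9 libraries carry the labels wild type for the genotype, blood for the tissue, PBMC for the cell type and total RNA for the molecule. The labels do not say what ct, WT and Y stand for, nor give the strain, age or sex of the mice. They also do not say whether the libraries of a group came from separate mice, so the p-values measure only the spread between these libraries, which may be technical.

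PBMCs are the white blood cells with a round, unlobed nucleus. Lymphocytes, among them natural killer (NK) cells, make up most of them and monocytes the rest. They are usually parted by density from granulocytes and red cells, so that few of the latter are meant to remain. Neutrophils store antimicrobial proteins in granules, red cells hold globins and the enzymes of haem synthesis, and platelets hold RNA made by megakaryocytes. In bulk RNA, fewer cells of a type and less RNA per cell cannot be told apart.

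A library held between 4686387 (Y replicate 1) and 8678930 (ct replicate 1) expected counts in the 6 libraries compared, and ribosomal RNA took 50.5% to 55.4% of them. This left 2284285 to 3880865 counts for all other genes. Levels are given as CPM, the counts of a gene scaled to a common library size with edgeR's TMM factors. The labelled cell type was checked against its markers. The B cell gene Ighm, the heavy chain of IgM, was at 163, 167 and 173 CPM in ct and 158, 155 and 163 CPM in Y. Bcl11b, a transcription factor of T cells, was at 74.6, 73.1 and 69.6 CPM in ct and 68.7, 71.8 and 72.9 CPM in Y. The chemokine gene Ccl5, a marker of NK and memory T cells, was at 14.9, 15.3 and 15.8 CPM in ct and 13.5, 14.8 and 11.6 CPM in Y. The lysozyme gene Lyz2 of monocytes and other myeloid cells was at 165, 152 and 184 CPM in ct and 175, 165 and 155 CPM in Y. No marker of these 4 lists passed the test of Y against ct (0 of 15 B cell, 0 of 18 T cell, 0 of 13 NK cell and 0 of 21 monocyte markers tested, with 0.705% of all genes called). Globins of red cells, platelet genes and neutrophil genes were present as well, although the label names none of these cells. Between pairs of Y libraries the median chi-square per protein-coding gene was 0.519 to 0.576, against 0.455 from counting alone. Pairs of ct libraries lay at 0.594 to 0.670, and pairs of a ct with a Y library overlapped these, at 0.580 to 0.786. The means, 1.40 to 1.55 in Y and 1.86 to 3.41 in ct, lay above the value of 1 that counting alone gives, so no pair was treated as a copy. In WT the median reached 1.22 for a pair with WT replicate 3, whose TMM factor was 0.783. Against WT, 51 genes were higher and 95 lower in Y, and without WT replicate 3 these counts were 33 and 47, without WT replicate 2 they were 31 and 50.

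In the edgeR quasi-likelihood test with Benjamini-Hochberg adjustment, which gives every adjusted p below, 31 genes were higher in Y than in ct (0.266% of those tested) and 51 were lower (0.438%) at an adjusted p under 0.05. The median log2 fold change over all genes was -0.0044. The genes higher in Y included 10 neutrophil markers and 5 small nuclear and nucleolar RNAs, and the 31 had a median log2 fold change of 1.20, with 19 beyond 1. Those lower in Y included 12 erythroid markers, 5 platelet markers and 4 glucocorticoid response genes, and the 51 had a median of -0.58, with 6 beyond -1. In all 82 called genes the 3 Y libraries lay wholly above or wholly below the 3 ct libraries, which 5.70% and 7.55% of all genes tested did. The calls were made on these same libraries, so this separation adds no support of its own. Of the 31 genes higher in Y, 20 were also higher than in WT at the same threshold, beside 0.438% of all genes. All 31 had a positive log2 fold change against WT, beside 50.2% of all genes. Of the 51 genes lower in Y, 7 were also lower than in WT, beside 0.817% of all genes. Against WT, 25 of the 51 had a negative log2 fold change, and Alox12 was instead higher in Y than in WT. The 2 comparisons share the Y libraries, so they are not independent, and their agreement was not tested. An unadjusted p under 0.05 was reached by 1002 genes (8.61%). The counts depended on single libraries: without ct replicate 3, 116 genes were higher and 51 lower, and without ct replicate 1, ct replicate 2, Y replicate 1, Y replicate 2 or Y replicate 3 they were 20 and 36, 21 and 33, 21 and 28, 19 and 23, and 17 and 17. With library totals in place of TMM 27 were higher and 15 lower, so that 64.3% of calls were higher in place of 37.8%.

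**Figure D1:**
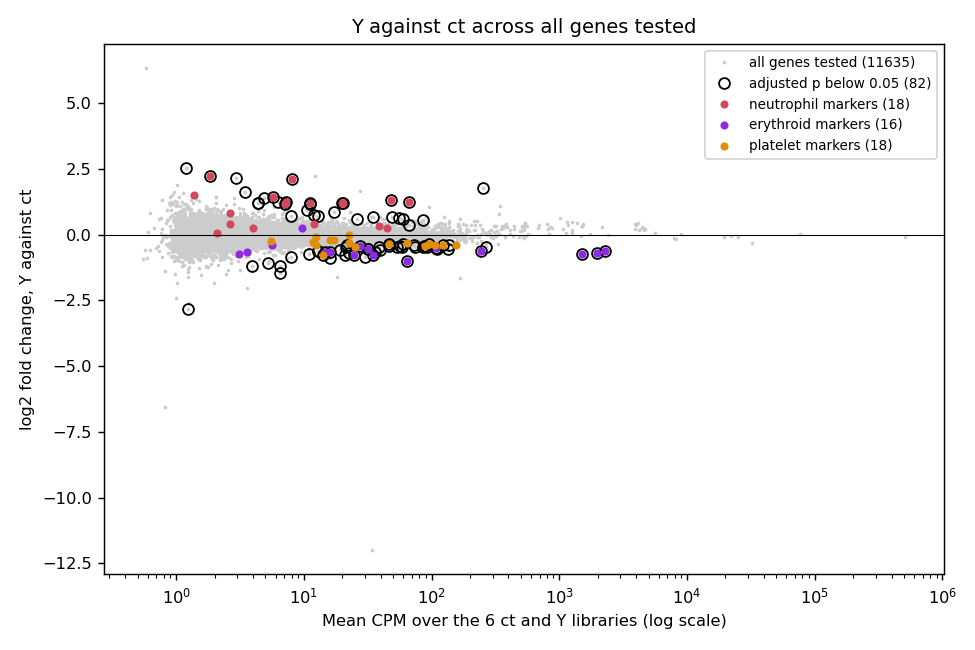
Log2 fold change of Y against ct (vertical axis) against mean CPM over the 6 libraries (log scale) for the 11635 genes tested, with the 82 called genes circled. Neutrophil markers lie above 0, and erythroid and platelet markers lie below it with the exception of the transferrin receptor gene Tfrc at 0.24.

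Neutrophil genes were higher in Y. Of the 21 neutrophil markers, 18 had enough counts, and 10 of these 18 were called higher and 0 lower, beside 0.266% of all genes called higher. The median log2 fold change of the 18 was 1.19 and all 18 were positive (49.1% of all genes were). The summed level of the list was 204 to 215 CPM in ct, 198 to 215 CPM in WT and 383 to 413 CPM in Y, a ratio of 1.90 between Y and ct. Against WT, 10 of the 18 were called higher, beside 0.438% of all genes. They included Cxcr2, which was not called against ct, and not Ltf, which was. The list's count was 9 to 11 against ct over the alternatives run, and 8 to 10 against WT, with 8 without Y replicate 2.

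The S100a8 and S100a9 genes encode the subunits of calprotectin, a calcium- and zinc-binding protein that fills the cytosol of neutrophils. S100a8 (chr3:90668978-90670035, plus strand, GRCm38) stood at 28.4, 24.9 and 29.8 CPM in the ct libraries, 15.8, 18.5 and 16.5 CPM in the WT libraries and 65.9, 70.3 and 68.8 CPM in the Y libraries. The Y values were 2.46 times those of ct by the fit (log2 fold change 1.30, SE 0.09, adjusted p = 1.51e-06) and further from WT (log2 fold change 2.01, SE 0.10, adjusted p = 4.10e-09). No 2 of the 3 groups overlapped. S100a9 stood at 41.4, 35.1 and 42.9 CPM in the ct libraries, 28.03, 30.3 and 31.7 CPM in the WT libraries and 100.4, 90.97 and 87.9 CPM in the Y libraries. S100a9 was higher in every Y library than in every ct and every WT library (log2 fold change 1.22, SE 0.09, adjusted p = 3.80e-06 against ct). Both genes were lower in WT than in ct, at -0.71 (adjusted p = 8.21e-04) and -0.41 (adjusted p = 0.0342), so that Y lay above and WT below the ct libraries that both comparisons share.

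Ngp, neutrophilic granule protein, and Ltf, lactoferrin, belong to the secondary granules that neutrophils fill as they mature in the bone marrow. Ngp (chr9:110419747-110423012, plus strand) stood at 2.38, 2.997 and 3.56 CPM in the ct libraries, 7.31, 6.97 and 7.92 CPM in the WT libraries and 15.5, 13.1 and 11.1 CPM in the Y libraries. It was 4.35 times as high in Y as in ct (log2 fold change 2.12, SE 0.18, adjusted p = 9.03e-06). Its WT values lay between those of the other groups, with log2 fold changes of 0.82 (adjusted p = 0.0106) for Y against WT and 1.31 (adjusted p = 0.00118) for WT against ct. Ltf stood at 2.97, 3.75 and 2.61 CPM in the ct libraries, 6.55, 6.21 and 5.797 CPM in the WT libraries and 7.86, 7.94 and 9.04 CPM in the Y libraries. Ltf was higher in every Y library than in every ct and every WT library (log2 fold change 1.43, SE 0.18, adjusted p = 5.95e-04 against ct). Here WT was likewise above ct, and Y and WT did not differ at the threshold (log2 fold change 0.42, adjusted p = 0.266). Camp, the cathelicidin precursor of the same granules, was at 1.07, 0.1498 and 0.8303 CPM in ct and 2.18, 1.17 and 2.84 CPM in Y. With 1 to 22 counts per library it was not called (log2 fold change 1.49, adjusted p = 0.293).

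Metalloproteases cut the extracellular matrix, and the genes Mmp9, Mmp8 and Mmp25 were called higher in Y. The family was not tested as a list. Mmp9, gelatinase B, stood at 12.1, 13.2 and 11.2 CPM in the ct libraries, 11.02, 11.8 and 13.998 CPM in the WT libraries and 27.3, 27.2 and 28.01 CPM in the Y libraries. Mmp9 was higher in every Y library than in every ct and every WT library (log2 fold change 1.18, SE 0.11, adjusted p = 2.00e-05 against ct). Mmp8, neutrophil collagenase, stood at 4.64, 3.45 and 4.39 CPM in the ct libraries, 3.05, 2.53 and 2.404 CPM in the WT libraries and 13.1, 9.11 and 8.39 CPM in the Y libraries. Mmp8 was higher in every Y library than in every ct and every WT library (log2 fold change 1.23, SE 0.19, adjusted p = 0.00439 against ct). Mmp25, a membrane-bound metalloprotease of leukocytes that is not in the marker list, stood at 2.498, 3.15 and 2.49 CPM in the ct libraries, 2.51, 2.15 and 3.39 CPM in the WT libraries and 6.76, 7.29 and 7.099 CPM in the Y libraries. Mmp25 was higher in every Y library than in every ct and every WT library (log2 fold change 1.39, SE 0.20, adjusted p = 0.00225 against ct). WT overlapped ct for Mmp9 and Mmp25 and lay below it for Mmp8.

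Lcn2, lipocalin 2, which binds bacterial siderophores, was at 6.78, 7.49 and 6.05 CPM in the ct libraries, 5.56, 3.7999 and 3.68 CPM in the WT libraries and 14.6, 16.5 and 14.97 CPM in the Y libraries. Lcn2 was higher in every Y library than in every ct and every WT library (log2 fold change 1.20, SE 0.15, adjusted p = 5.39e-04 against ct). Retnlg, a resistin-like protein of myeloid cells, was at 12.1, 11.7 and 12.7 CPM in the ct libraries, 15.1, 11.1 and 15.98 CPM in the WT libraries and 28.1, 27.98 and 28.3 CPM in the Y libraries. Retnlg was higher in every Y library than in every ct and every WT library (log2 fold change 1.21, SE 0.12, adjusted p = 3.81e-05 against ct). Cd177, a surface glycoprotein of neutrophils, was at 4.28, 4.64 and 4.27 CPM in ct and 8.51, 11.3 and 9.55 CPM in Y (log2 fold change 1.18, SE 0.16, adjusted p = 0.00128). The last called marker was Wfdc21, a small secreted protein, at 0.357, 0.749 and 0.8303 CPM in ct and 2.62, 3.51 and 2.97 CPM in Y (log2 fold change 2.24, SE 0.36, adjusted p = 0.00481). Those 4 genes were also higher in Y than in WT, at 1.80, 1.00, 1.06 and 2.10 on the log2 scale.

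Of the markers that were not called, the receptor gene Csf3r, for granulocyte colony-stimulating factor, was at 39.4, 39.9 and 43.2 CPM in ct and 52.8, 50.9 and 42.5 CPM in Y. Cxcr2, the receptor for neutrophil-attracting chemokines, was at 11.9, 10.2 and 9.13 CPM in ct and 13.7, 13.3 and 14.2 CPM in Y. Their log2 fold changes were 0.25 (adjusted p = 0.426) and 0.40 (adjusted p = 0.23). Against WT, Cxcr2 was called higher, with a log2 fold change of 0.75 (adjusted p = 0.00416). Mxd1, a partner of the transcription factor MAX, was at 34.8, 36.3 and 32.4 CPM in ct and 43.2, 46.9 and 39.2 CPM in Y (log2 fold change 0.32, adjusted p = 0.23). The surface marker gene Ly6g and the stefin genes Stfa2l1 and Stfa2 held too few counts to be tested. Summed over the 3 libraries of a group they had 9, 8 and 2 counts in ct and 32, 17 and 12 counts in Y.

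**Figure D2:**
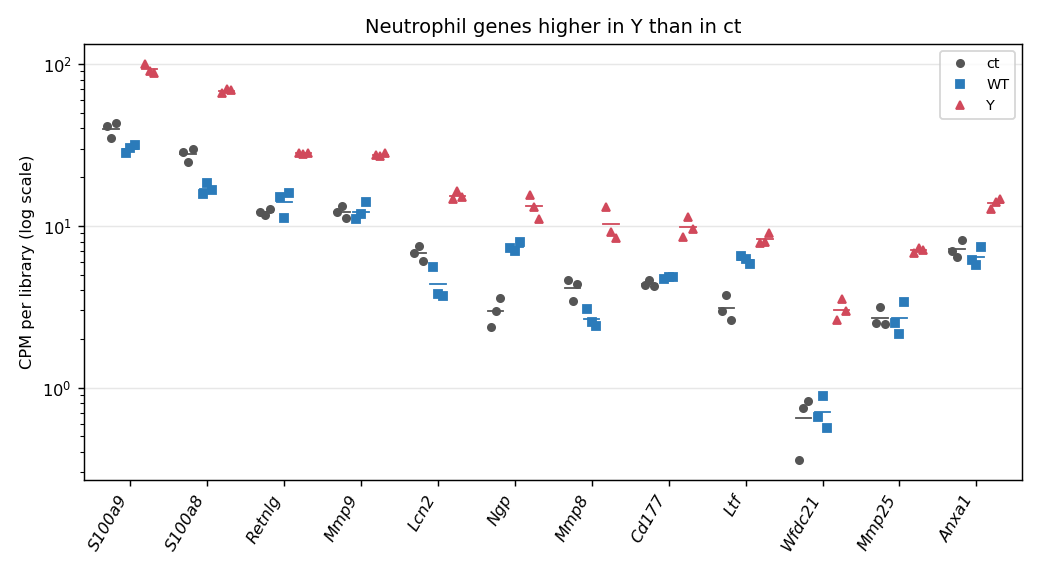
CPM per library (log scale) of the 10 neutrophil markers called higher in Y, with Mmp25 and Anxa1 beside them, for ct (circles), WT (squares) and Y (triangles); short lines are group means. Y lies above ct in all 12 genes, and S100a8 ranges from 65.9 to 70.3 CPM in Y.

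The promoters of 3 of these genes are shown because the 3 genes were higher in Y together. Each is the RefSeq window of GRCm38.p6 from 250 bases before to 50 after the start of transcription, and the capitals mark matches to TTNNGNAA on either strand, a loose form of the element that C/EBP proteins bind. The Ngp window is chr9:110419558-110419857, plus strand, that of S100a8 is chr3:90668821-90669120, plus strand and that of Ltf is chr9:111019042-111019341, plus strand.
Ngp: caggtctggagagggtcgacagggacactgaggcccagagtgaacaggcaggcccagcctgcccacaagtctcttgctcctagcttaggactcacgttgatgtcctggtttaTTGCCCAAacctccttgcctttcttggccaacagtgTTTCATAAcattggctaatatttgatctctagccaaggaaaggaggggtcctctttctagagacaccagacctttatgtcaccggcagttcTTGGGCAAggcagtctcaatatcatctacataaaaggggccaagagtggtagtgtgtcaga
S100a8: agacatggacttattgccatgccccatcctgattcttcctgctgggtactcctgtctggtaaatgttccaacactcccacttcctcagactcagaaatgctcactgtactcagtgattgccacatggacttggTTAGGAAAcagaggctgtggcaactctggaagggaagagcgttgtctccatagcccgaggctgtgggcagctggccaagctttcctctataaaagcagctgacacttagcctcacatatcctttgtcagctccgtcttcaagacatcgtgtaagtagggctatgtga
Ltf: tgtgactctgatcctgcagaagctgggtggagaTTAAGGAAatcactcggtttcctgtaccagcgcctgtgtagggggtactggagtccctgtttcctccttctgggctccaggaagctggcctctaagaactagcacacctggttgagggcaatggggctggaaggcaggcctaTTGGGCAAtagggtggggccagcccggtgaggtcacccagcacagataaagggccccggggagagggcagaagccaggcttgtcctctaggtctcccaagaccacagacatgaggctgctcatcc
The Ngp window held 3 matches, that of Ltf 2 and that of S100a8 1. Of the 16 tested neutrophil markers with a window, 11 held a match (68.8%), beside 31.2% of the 7852 tested genes with a window and 40.7% of all 32851 windows. The pattern was also in 5 of the 10 erythroid and 6 of the 14 platelet markers with a window. A match is a description of letters and was not tested as a binding site.

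Anxa1, annexin A1, a glucocorticoid-induced inhibitor of leukocyte recruitment, stood at 7.02, 6.44 and 8.18 CPM in the ct libraries, 6.11, 5.6999 and 7.35 CPM in the WT libraries and 12.7, 14.1 and 14.6 CPM in the Y libraries. Anxa1 was higher in every Y library than in every ct and every WT library (log2 fold change 0.93, SE 0.13, adjusted p = 0.00218 against ct). S100a6, a calcium-binding protein of the S100 family, was at 9.51, 8.84 and 9.02 CPM in ct and 14.2, 13.7 and 17.2 CPM in Y (log2 fold change 0.72, adjusted p = 0.00856). Pygl, liver-type glycogen phosphorylase, was at 10.5, 8.54 and 10.4 CPM in ct and 17.02, 14.6 and 16.9 CPM in Y (log2 fold change 0.70, adjusted p = 0.0175). Each of these 3 genes was also higher than in WT. The summed level of the neutrophil markers was 1.90 times as high in Y as in ct, and its part in the difference of these genes was not tested. Slfn4, a Schlafen family gene of myeloid cells, was at 21.4, 22.2 and 18.5 CPM in ct and 33.6, 27.98 and 32.4 CPM in Y (log2 fold change 0.59, adjusted p = 0.0158). At a few CPM, Alox15, an arachidonate lipoxygenase found in eosinophils and macrophages, was at 3.57, 2.85 and 4.74 CPM in ct and 9.16, 8.98 and 8.52 CPM in Y (log2 fold change 1.23, adjusted p = 0.00512). Asprv1, an aspartic protease, had a log2 fold change of 1.21 (adjusted p = 0.00786), and Ifitm6, of the interferon-induced transmembrane family, had 1.21 (adjusted p = 0.00856). Abca13, a lipid transporter of the ABC family, stood at 0.476, 0.2997 and 0.237 CPM in ct and 1.96, 2.34 and 1.81 CPM in Y (log2 fold change 2.53, adjusted p = 0.0066). For Asprv1, Ifitm6 and Abca13 the WT libraries lay between ct and Y without overlap, and for Alox15 they overlapped ct.

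Ccr3, the eotaxin receptor of eosinophils and basophils, stood at 1.19, 1.498 and 2.25 CPM in the ct libraries, 2.73, 1.65 and 2.55 CPM in the WT libraries and 5.89, 5.73 and 4.13 CPM in the Y libraries. Ccr3 was higher in every Y library than in every ct and every WT library (log2 fold change 1.63, SE 0.29, adjusted p = 0.00886 against ct). It was the called member of the 3 basophil, eosinophil and mast cell markers that could be tested, beside 0.266% of all genes called higher. The summed level of that list was 10.9 to 12.5 CPM in ct and 16.01 to 17.7 CPM in Y. Ccr3 was not called without ct replicate 1, Y replicate 1 or Y replicate 2, and DESeq2 gave it no adjusted p. Hdc, histidine decarboxylase, which makes histamine, was at 5.83, 5.39 and 6.88 CPM in ct and 9.601, 10.7 and 9.42 CPM in Y (log2 fold change 0.71, adjusted p = 0.0409). The Hdc call was kept in 10 of the 19 alternatives run. It was lost with DESeq2, library totals, the replicate block and any 1 Y library left out. Top2a, the DNA topoisomerase of dividing cells, was at 12.96, 7.94 and 15.8 CPM in the ct libraries, 10.4, 11.02 and 10.2 CPM in the WT libraries and 18.3, 23.2 and 24.8 CPM in the Y libraries. Top2a was higher in every Y library than in every ct and every WT library (log2 fold change 0.85, SE 0.17, adjusted p = 0.0242 against ct). Of the 21 cell cycle genes tested it was the 1 called, beside 0.266% of all genes called higher. The median of the list was 0.04, and 11 members were positive, near the 49.1% of all genes that were. Syne1, which links the nucleus to the cytoskeleton, was at 59.8, 57.8 and 56.5 CPM in ct and 77.03, 71.8 and 76.5 CPM in Y (log2 fold change 0.37, SE 0.08, adjusted p = 0.0375). Its call was kept in 6 of the 19 alternatives run, and lost with DESeq2, the replicate block and any 1 ct or Y library left out.

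Of 272 snoRNA genes tested 3 were called higher in Y, and of 157 snRNA genes 2 were, beside 0.266% of all genes. Many snoRNAs guide the modification of ribosomal RNA. Snora75 was at 28.3, 22.03 and 29.9 CPM in ct and 44.3, 37.6 and 45.05 CPM in Y (log2 fold change 0.65, adjusted p = 0.00856). Snord90 was at 35.4, 30.7 and 46.02 CPM in ct and 64.8, 55.3 and 60.8 CPM in Y (log2 fold change 0.68, adjusted p = 0.0333). The other 3 were the snoRNA Gm25878, with a log2 fold change of 0.62 (adjusted p = 0.0158), and the snRNA genes Gm23092, at 1.16 (adjusted p = 0.0175), and Gm25890. Gm25890 varied within groups, at 128, 102 and 111 CPM in the ct libraries, 143, 343 and 349.8 CPM in the WT libraries and 273, 701 and 195 CPM in the Y libraries. Its WT and Y values overlapped. A further small RNA, Snord43, which is annotated as a miRNA gene, had a log2 fold change of 0.56 (adjusted p = 0.0387). The Snord43 call was kept in 10 of the 17 alternatives that gave it a value. Over all 272 snoRNA genes tested, the median log2 fold change was 0.24, 241 were positive, beside 49.1% of all genes, and 45 had all Y libraries above ct, beside 5.70% of all genes. That median was 0.40 without ct replicate 3 and 0.16 without ct replicate 1. Over 157 snRNA genes, 129 were positive (median 0.27). Against WT the medians were 0.0044 and -0.05. The snoRNA share of counts outside rRNA was 3.59%, 3.52% and 4.84% for the ct libraries. It was 4.48%, 4.02% and 4.19% for the WT and 4.51%, 4.80% and 5.05% for the Y libraries, and ct replicate 3 lay within the Y range. Without ct replicate 3 the number of snoRNA genes called higher was 44 in place of 3, beside 116 of all 11900 genes. Without ct replicate 1 or 2 it was 1, beside 20 of 11929 and 21 of 12056 genes. Without Y replicate 3 it was 0, beside 17 of 12056. With library totals 0 snoRNA genes were called higher and 1 lower, beside 27 and 15 of 11635. With no filter on low counts 33 of the same 272 snoRNA genes were called higher. Of the 157 snRNA genes 17 were, in place of 2, beside 133 of all 29571 genes. The pseudogenes Gm29216 (log2 fold change 0.57, adjusted p = 0.0269) and Rps18-ps3 (log2 fold change 2.13, adjusted p = 0.0475) completed the genes higher in Y. The Rps18-ps3 call was kept in 6 of the 16 alternatives that gave it a value, with log2 fold changes from 1.51 to 2.79. Reads of multicopy small RNAs and of pseudogenes may be divided between near-identical copies.

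Erythroid genes were lower in Y. Of 20 erythroid markers 16 could be tested, and 12 of the 16 were called lower, beside 0.438% of all genes, and 0 higher. Their median log2 fold change was -0.65, and in 15 of 16 all Y libraries lay below all ct libraries (7.55% of all genes). The summed level of the list was 7145 to 8532 CPM in ct, 4458 to 5134 CPM in WT and 4614 to 5197 CPM in Y, a ratio of 0.627 between Y and ct. Against WT, 0 of the 16 were called, beside 0.438% of all genes called higher and 0.817% called lower, and their median was 0.04. The WT libraries had 13 of 16 called lower than the same ct libraries, beside 1.60% of all genes.

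Hbb-bs, an adult beta globin, was at 2532, 2921 and 2819.6 CPM in the ct libraries, 1697, 1676 and 1844 CPM in the WT libraries and 1874, 1762 and 1772 CPM in the Y libraries (log2 fold change -0.61, SE 0.11, adjusted p = 0.00856). Hbb-bt, its neighbour, was at 262, 313 and 304 CPM in ct and 194, 194 and 188 CPM in Y (log2 fold change -0.61, adjusted p = 0.00439). Hba-a1, an alpha globin, was at 2079, 2858 and 2477 CPM in the ct libraries, 1535, 1239 and 1413 CPM in the WT libraries and 1608, 1540.2 and 1368 CPM in the Y libraries (log2 fold change -0.71, SE 0.13, adjusted p = 0.012). Its near-identical copy Hba-a2 was at 1872, 2011 and 1791 CPM in ct and 1245, 1155 and 1024 CPM in Y (log2 fold change -0.73, adjusted p = 0.00841). Reads of each globin pair may be divided between the copies, so the split within a pair is uncertain. For haem synthesis, Alas2, the erythroid enzyme of the first step, was at 119, 132 and 129 CPM in ct and 88.4, 91.9 and 85.7 CPM in Y (log2 fold change -0.51, SE 0.08, adjusted p = 0.00512). Fech, the enzyme that inserts iron, was at 37.8, 47.2 and 46.9 CPM in ct and 26.6, 26.8 and 23.9 CPM in Y (log2 fold change -0.77, adjusted p = 0.00169).

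Slc4a1, band 3, the anion exchanger of the red cell membrane (chr11:102348824-102366203, minus strand), stood at 79.8, 97.4 and 81.8 CPM in the ct libraries, 47.8, 41.8 and 46.1 CPM in the WT libraries and 44.95, 41.6 and 42.1 CPM in the Y libraries. Slc4a1 was lower in every Y library than in every ct library, and the Y and WT libraries overlapped (log2 fold change -1.01, SE 0.10, adjusted p = 2.70e-05 against ct). The Y and WT ranges overlapped, and Y was 0.496 times ct. Among other genes called lower, log2 fold changes were, for Sptb, beta spectrin, -0.64 (adjusted p = 0.0158), for Epb41, protein 4.1, -0.41 (adjusted p = 0.0242) and for Stom, stomatin, -0.49 (adjusted p = 0.0171). The calls of Sptb, Epb41 and Stom were kept in 13, 10 and 12 of the 19 alternatives run. The summed level of erythroid markers in Y was 0.627 times that in ct, and its part in the difference of these genes was not tested. Of the enzymes that protect red cells from peroxides, peroxiredoxin 2 (Prdx2) had a log2 fold change of -0.73 (adjusted p = 0.00932), catalase (Cat) at -0.49 and glutathione peroxidase 1 (Gpx1) at -0.48 (adjusted p = 0.0346). Their calls were kept in 15, 16 and 10 of the 19 alternatives run.

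Car2, carbonic anhydrase 2, was at 17.6, 17.8 and 18.3 CPM in ct and 12.002, 10.4 and 11.9 CPM in Y (log2 fold change -0.65, adjusted p = 0.00439). Bpgm, which makes the bisphosphoglycerate that lowers oxygen affinity, was at 36.9, 35.4 and 41.2 CPM in ct and 27.5, 27.9 and 22.3 CPM in Y (log2 fold change -0.55, adjusted p = 0.0141). Ube2l6, a conjugating enzyme for ISG15, was at 28.5, 28.2 and 36.5 CPM in ct and 19.9, 17.4 and 17.2 CPM in Y (log2 fold change -0.79, adjusted p = 0.00218). Xpo7, exportin 7, had a log2 fold change of -0.45 (adjusted p = 0.0324), a call kept in 8 of the 19 alternatives run. Outside the list the mitochondrial iron importer gene Slc25a37, mitoferrin 1, had a log2 fold change of -0.46 (adjusted p = 0.0242), the transporter gene Slc25a39 had -0.58 (adjusted p = 0.00886). Tent5c, a poly(A) polymerase, had -0.54 (adjusted p = 0.00368), and Bcl2l1, which encodes the survival factor Bcl-xL, had -0.69 (adjusted p = 0.00368). None of the genes named in this paragraph so far differed from WT at the threshold. Epb42, Gata1 and Tfrc were among the 4 tested markers that were not called. Epb42, a membrane skeleton protein, had a log2 fold change of -0.74 (adjusted p = 0.33), and Gata1, the erythroid transcription factor, had -0.39 (adjusted p = 0.587). Tfrc, the transferrin receptor, was at 10.2, 7.34 and 8.66 CPM in ct and 10.7, 9.76 and 10.97 CPM in Y (log2 fold change 0.24, adjusted p = 0.82).

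Platelet genes were lower in Y as well, by less. All 18 platelet markers were tested, and 5 were called lower, beside 0.438% of all genes, and 0 higher. All 18 had a negative log2 fold change (50.9% of all genes did), and the median was -0.37. The summed level was 1024 to 1074 CPM in ct, 638 to 723 CPM in WT and 793 to 831 CPM in Y. The Y libraries lay between the other groups without overlap. Against WT all 18 were positive, 12 with every Y library above every WT library (8.54% of all genes), and 4 of 18 were called higher, beside 0.438% of all genes. That count of 4 was 2 to 6 over the alternatives run. It was 2 with DESeq2, with library totals, and without WT replicate 2, WT replicate 3 or any 1 Y library. WT had 16 of 18 called lower than ct, beside 1.60%. The share of all genes with a positive log2 fold change of Y against WT was 50.2%.

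Pf4, platelet factor 4, a chemokine of the alpha granules, was at 92.2, 115 and 101 CPM in the ct libraries, 65.996, 61.3 and 67.02 CPM in the WT libraries and 72.4, 75.9 and 77.7 CPM in the Y libraries. Pf4 was lower in every Y library than in every ct library, with the Y libraries between ct and WT (log2 fold change -0.44, SE 0.09, adjusted p = 0.0328 against ct). Ppbp, the precursor of another granule chemokine, was at 109, 100.4 and 114 CPM in the ct libraries, 71.996, 73.2 and 74.9 CPM in the WT libraries and 83.1, 80.04 and 85.6 CPM in the Y libraries. Ppbp was lower in every Y library than in every ct library, with the Y libraries between ct and WT (log2 fold change -0.38, SE 0.08, adjusted p = 0.0452 against ct). Itgb3, integrin beta 3, was at 138, 138 and 141 CPM in ct and 112, 105 and 99.6 CPM in Y (log2 fold change -0.40, adjusted p = 0.0409). Its partner Itga2b was at 169, 177 and 179 CPM in the ct libraries, 111, 97.3 and 115 CPM in the WT libraries and 134, 136 and 133 CPM in the Y libraries. It lay below ct in every Y library but missed the threshold (log2 fold change -0.38, SE 0.09, adjusted p = 0.0585). Alox12, platelet lipoxygenase, was at 52.6, 50.3 and 53.6 CPM in the ct libraries, 33.2, 29.6 and 31.1 CPM in the WT libraries and 42.1, 40.5 and 39.4 CPM in the Y libraries. It was lower than in ct (log2 fold change -0.36, adjusted p = 0.0491) and higher than in WT (log2 fold change 0.37, adjusted p = 0.0375). The Alox12 call against ct was kept in 5 of the 19 alternatives run, and that against WT in 10 of 19. Thbs1, thrombospondin 1, was at 105, 108 and 110.2 CPM in the ct libraries, 50.8, 56.9 and 62.4 CPM in the WT libraries and 87.3, 81.3 and 80.9 CPM in the Y libraries. The Y libraries lay between the other groups, with log2 fold changes of -0.38 (adjusted p = 0.0708) against ct and 0.55 (adjusted p = 0.00403) against WT. Clec1b, the podoplanin receptor, had -0.21 (adjusted p = 0.715) and 0.59 (adjusted p = 0.0422). The group means of Pf4, Ppbp, Itgb3, Itga2b, Alox12, Thbs1 and Clec1b stood in the order ct, Y, WT from high to low. Clu, clusterin (log2 fold change -0.46, adjusted p = 0.0333), Fhl1 (log2 fold change -0.45, adjusted p = 0.0138), Gas2l1 (log2 fold change -0.44, adjusted p = 0.0343), Sh3bgrl2 (log2 fold change -0.40, adjusted p = 0.0357) and Pttg1ip (log2 fold change -0.42, adjusted p = 0.0138) were also lower in Y than in ct. Of the 19 alternatives run, 11, 13, 8, 7 and 14 kept these calls, in that order. The calls of Pf4, Ppbp and Itgb3 against ct were kept in 9, 6 and 7.

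**Figure D3:**
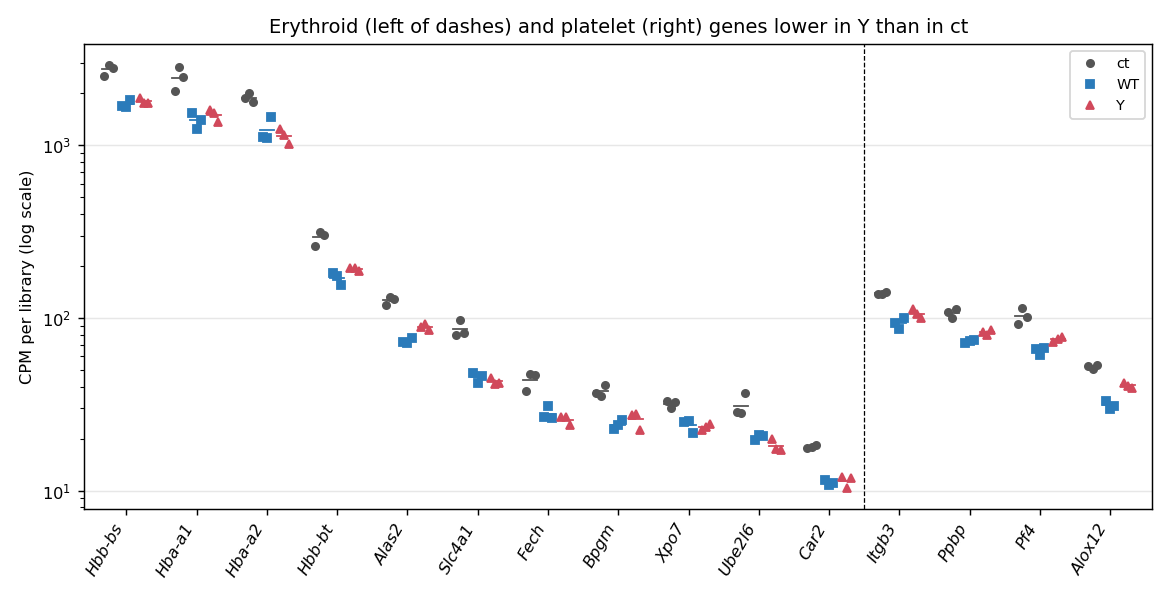
CPM per library (log scale) of the erythroid and platelet markers that were called lower in Y and are named here, for ct (circles), WT (squares) and Y (triangles); short lines are group means. All Y libraries lie below all ct libraries in these genes, and Slc4a1 ranges from 41.6 to 45.0 CPM in Y and from 41.8 to 47.8 CPM in WT.

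The windows of Alas2 (chrX:150547167-150547466, plus strand) and Pf4 (chr5:90772185-90772484, plus strand) are given as examples of an erythroid and a platelet promoter, with matches to AGATAA on either strand, the element bound by GATA factors, in capitals.
Alas2: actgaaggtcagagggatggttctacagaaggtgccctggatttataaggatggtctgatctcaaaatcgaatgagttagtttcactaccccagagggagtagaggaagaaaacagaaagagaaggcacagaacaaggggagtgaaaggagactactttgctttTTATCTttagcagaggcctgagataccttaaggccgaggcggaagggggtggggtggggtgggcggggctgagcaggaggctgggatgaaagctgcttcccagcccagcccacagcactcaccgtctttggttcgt
Pf4: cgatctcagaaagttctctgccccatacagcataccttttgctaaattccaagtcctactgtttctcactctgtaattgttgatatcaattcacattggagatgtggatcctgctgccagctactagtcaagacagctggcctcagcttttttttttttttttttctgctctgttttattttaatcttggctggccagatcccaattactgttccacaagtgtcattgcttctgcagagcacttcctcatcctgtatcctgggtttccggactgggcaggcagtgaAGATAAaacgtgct
The Alas2 match starts 86 bases before the start of transcription, and that of Pf4 lies after it. A match was held by 3 of the 10 erythroid markers with a window (30.0%) and 5 of the 14 platelet markers (35.7%), beside 6.29% of the tested genes with a window and 11.2% of all windows. It was also held by 18.8% of the neutrophil markers with a window, and by 9.09% of the genes called lower in Y.

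The counts of called erythroid and platelet genes depend on the settings. With library totals in place of TMM, 3 erythroid and 0 platelet markers were called lower, and without Y replicate 2 or 3 the erythroid count was 7 and 4. The platelet count was 1 or 2 without any single 1 of the 9 libraries, 1 in the fit of the ct and Y libraries alone and with the replicate number as a block, and 3 with rRNA genes removed. It was 9 with no filter on low counts and with protein-coding counts only. The list medians stayed between -0.67 and -0.60 for erythroid and between -0.39 and -0.33 for platelet markers under every alternative run.

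**Figure D4:**
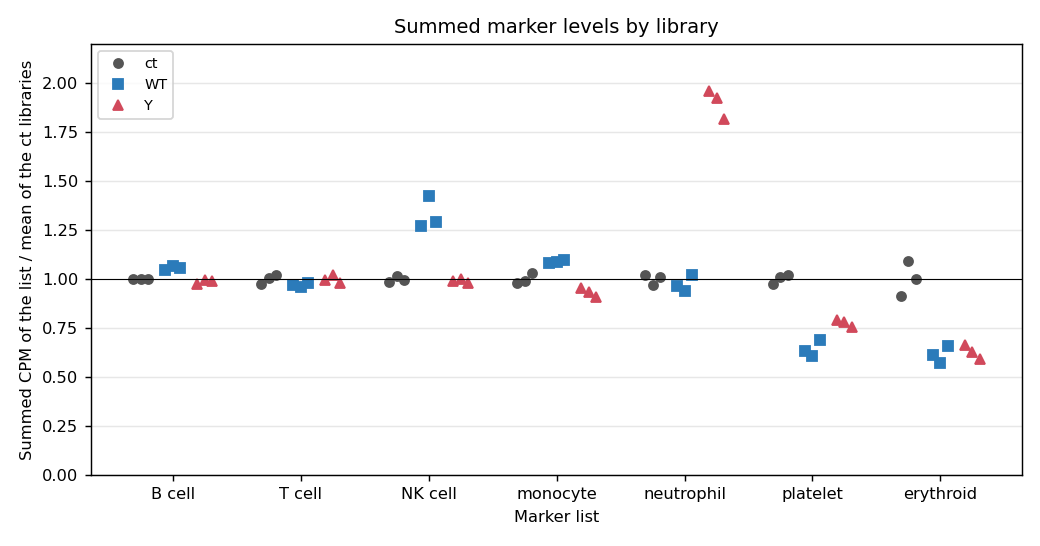
Summed CPM of each marker list per library, divided by the mean of the ct libraries (vertical axis from 0), for ct (circles), WT (squares) and Y (triangles). Y stands at 1.90 times ct for neutrophil, 0.774 for platelet and 0.627 for erythroid markers, and between 0.931 and 0.997 for B cell, T cell, NK cell and monocyte markers.

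The genes lower in Y than in both ct and WT were Dusp1, Sik1, Cxcr4, Txnip, Tsc22d3, Ddit4 and Hspa1b, 7 in all. Glucocorticoids act through a nuclear receptor and induce a set of genes in blood cells, and 4 of them (Tsc22d3, Ddit4, Txnip and Dusp1) are in that list. Of the 16 genes of the list that were tested 4 were called lower, beside 0.438% of all genes, 1 (Anxa1) higher, beside 0.266%, and 11 were not called. The median was -0.12. Tsc22d3, or GILZ, a leucine zipper protein that restrains inflammation, stood at 123, 130.4 and 136 CPM in the ct libraries, 129, 129 and 120.0 CPM in the WT libraries and 88.8, 90.7 and 87.1 CPM in the Y libraries. Tsc22d3 was lower in every Y library than in every ct and every WT library (log2 fold change -0.54, SE 0.08, adjusted p = 0.00368 against ct). Ddit4, an inhibitor of mTORC1 that is induced by stress and glucocorticoids, stood at 37.2, 43.2 and 36.3 CPM in the ct libraries, 39.3, 39.8 and 42.4 CPM in the WT libraries and 23.3, 23.2 and 18.5 CPM in the Y libraries. Ddit4 was lower in every Y library than in every ct and every WT library (log2 fold change -0.85, SE 0.11, adjusted p = 6.84e-04 against ct). Txnip, which binds thioredoxin and limits glucose uptake, stood at 305, 309 and 319 CPM in the ct libraries, 329, 328 and 315 CPM in the WT libraries and 223, 225 and 225 CPM in the Y libraries. Txnip was lower in every Y library than in every ct and every WT library (log2 fold change -0.47, SE 0.08, adjusted p = 0.00932 against ct). In these 3 genes the ct and WT libraries overlapped and the Y libraries lay below both.

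Dusp1, a phosphatase that switches off MAP kinases, stood at 96.2, 111 and 91.9 CPM in the ct libraries, 141, 140.3 and 142 CPM in the WT libraries and 71.6, 71.4 and 72.3 CPM in the Y libraries. Dusp1 was lower in every Y library than in every ct and every WT library (log2 fold change -0.47, SE 0.09, adjusted p = 0.0145 against ct). Sik1, a salt-inducible kinase of cAMP signalling, stood at 64.2, 64.6 and 57.9 CPM in the ct libraries, 80.3, 81.6 and 83.1 CPM in the WT libraries and 45.8, 45.3 and 43.6 CPM in the Y libraries. Sik1 was lower in every Y library than in every ct and every WT library (log2 fold change -0.47, SE 0.08, adjusted p = 0.00886 against ct). WT was higher than ct in both genes, by 0.50 (adjusted p = 0.00329) and 0.39 (adjusted p = 0.011) on the log2 scale, and Y against WT gave -0.98 (adjusted p = 1.21e-05) and -0.86 (adjusted p = 1.69e-05). Cxcr4, the receptor that retains leukocytes in the bone marrow, stood at 45.1, 46.6 and 50.2 CPM in the ct libraries, 49.9, 50.8 and 55.4 CPM in the WT libraries and 32.3, 30.5 and 31.1 CPM in the Y libraries. It was lower in every Y library than in every ct library (log2 fold change -0.60, SE 0.09, adjusted p = 0.00218) and every WT library (log2 fold change -0.73, adjusted p = 1.64e-04).

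Of the other genes of the list, Fkbp5, a co-chaperone of the receptor, was at 12.01, 14.5 and 11.6 CPM in the ct libraries, 6.22, 5.57 and 6.79 CPM in the WT libraries and 11.6, 10.9 and 12.004 CPM in the Y libraries. It was not called against ct (log2 fold change -0.14, adjusted p = 0.848) and higher than in WT (log2 fold change 0.89, adjusted p = 0.00264). Sgk1, a serum- and glucocorticoid-regulated kinase, was at 27.9, 32.7 and 28.8 CPM in ct and 30.99, 24.6 and 28.3 CPM in Y (log2 fold change -0.10, adjusted p = 0.871). Per1, a clock gene, was at 61.4, 65.5 and 54.7 CPM in the ct libraries, 96.2, 102 and 97.99 CPM in the WT libraries and 50.2, 45.4 and 42.7 CPM in the Y libraries. It missed the threshold against ct (log2 fold change -0.40, adjusted p = 0.072) and was lower than in WT (log2 fold change -1.10, adjusted p = 5.99e-06). Under library totals 1 of the list was called lower, and with any 1 of the Y libraries left out 2 were.

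Hspa1b, an inducible HSP70 chaperone that binds misfolded proteins, stood at 10.2, 8.09 and 10.2 CPM in the ct libraries, 7.75, 6.97 and 6.65 CPM in the WT libraries and 2.84, 3.77 and 3.61 CPM in the Y libraries. Hspa1b was lower in every Y library than in every ct and every WT library (log2 fold change -1.45, SE 0.17, adjusted p = 4.36e-04 against ct). Its Y values lay below those of ct and WT without overlap (-1.03 (adjusted p = 0.0062) against WT). It was the called member of 20 heat shock genes tested, beside 0.438% of all genes called lower. The median of the 20 was -0.11, with 15 negative (50.9% of all genes) and 8 with all Y libraries below ct (7.55% of all genes). The summed level of the list ran the other way, at 1058 to 1491 CPM in ct and 1519.5 to 1658 CPM in Y (ratio 1.29), and most of that sum was Hspa8. The near-identical gene Hspa1a was at 4.76, 5.24 and 5.46 CPM in ct and 3.93, 3.25 and 2.97 CPM in Y (log2 fold change -0.63, adjusted p = 0.476), and reads may be divided between both. Hsph1, a co-chaperone of HSP70, was at 12.5, 15.1 and 13.5 CPM in ct and 8.73, 10.9 and 9.68 CPM in Y (log2 fold change -0.46, adjusted p = 0.134). Hsp90ab1 had a log2 fold change of -0.10 (adjusted p = 0.847). The constitutive Hspa8 was at 912, 769 and 1202 CPM in ct and 1385, 1253 and 1402 CPM in Y (log2 fold change 0.49, adjusted p = 0.196). With DESeq2, with no filter on low counts, without ct replicate 3 and with protein-coding counts only, 1 member of the list was called higher. The Hspa1b window (chr17:34959189-34959488, minus strand) is shown with its match to GAANNTTC, the core of the heat shock element, in capitals.
Hspa1b: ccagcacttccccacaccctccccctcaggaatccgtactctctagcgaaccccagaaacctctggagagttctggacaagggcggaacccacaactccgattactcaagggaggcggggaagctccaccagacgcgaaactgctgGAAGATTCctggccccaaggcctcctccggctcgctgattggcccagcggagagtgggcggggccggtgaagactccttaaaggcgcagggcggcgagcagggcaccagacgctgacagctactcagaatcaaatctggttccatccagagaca
The element was found in 7 of the 16 heat shock genes with a window (43.8%), beside 5.63% of the tested genes with a window and 7.86% of all windows.

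Immediate early genes are switched on within minutes by many signals without new protein. Of 27 tested, 1 (Dusp1) was called lower than in ct, beside 0.438% of all genes, and 0 higher, beside 0.266%, and the median was -0.08. Against WT, 16 of the 27 were lower in Y and 0 higher, beside 0.817% of all genes called lower, with a median of -0.53 and 23 of 27 with all Y libraries below all WT libraries (8.75% of all genes). WT against ct had 15 of 27 called higher, beside 0.765% of all genes, and a median of 0.44. Jun, a subunit of AP-1, was at 27.4, 26.4 and 26.6 CPM in the ct libraries, 42.8, 45.9 and 47.9 CPM in the WT libraries and 21.2, 22.5 and 18.7 CPM in the Y libraries. Its log2 fold change was -0.37 (adjusted p = 0.137) against ct and -1.13 (adjusted p = 5.99e-06) against WT. Fos, its partner, was at 49.6, 51.4 and 50.3 CPM in the ct libraries, 70.03, 67.1 and 70.4 CPM in the WT libraries and 43.4, 50.1 and 41.05 CPM in the Y libraries. Its log2 fold change was -0.17 (adjusted p = 0.657) against ct and -0.62 (adjusted p = 0.00116) against WT. Junb was at 141, 153 and 139 CPM in ct and 150.3, 156 and 139 CPM in Y (log2 fold change 0.04, adjusted p = 0.948). The nuclear receptor genes Nr4a1 and Nr4a3 had log2 fold changes of -0.09 (adjusted p = 0.867) and -0.11 (adjusted p = 0.933) against ct and -0.53 (adjusted p = 0.00513) and -1.28 (adjusted p = 2.07e-04) against WT.

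NF-kB switches on inflammatory genes and, with them, its own inhibitors. Of 29 inflammatory cytokine and NF-kB feedback genes, 0 were called against ct (median -0.02), near the 0.705% of all genes. Against WT, 9 were lower, beside 0.817% of all genes. The list's median against WT was -0.42. In 19 of 29 all Y libraries lay below WT, beside 8.75% of all genes. Tnfaip3, the ubiquitin-editing enzyme A20, was at 157, 144 and 159 CPM in the ct libraries, 222, 225 and 227 CPM in the WT libraries and 144, 143 and 144 CPM in the Y libraries. Its log2 fold change was -0.09 (adjusted p = 0.841) against ct and -0.64 (adjusted p = 4.15e-04) against WT. Nfkbia, the inhibitor IkB-alpha, was at 96.6, 101 and 97.9 CPM in the ct libraries, 132, 134 and 129.8 CPM in the WT libraries and 84.01, 80.6 and 73.96 CPM in the Y libraries. Nfkbia had log2 fold changes of -0.31 (adjusted p = 0.14) and -0.73 (adjusted p = 1.42e-04). Tnf itself was at 4.88, 5.39 and 5.101 CPM in the ct libraries, 9.27, 9.37 and 8.91 CPM in the WT libraries and 6.33, 6.25 and 6.32 CPM in the Y libraries. It was not called in either comparison, at 0.30 (adjusted p = 0.699) and -0.54 (adjusted p = 0.0629). Of other genes, Dusp2, a nuclear MAP kinase phosphatase, had a log2 fold change of -0.35 (adjusted p = 0.199) against ct and -0.86 (adjusted p = 1.64e-04) against WT. Zfp36l2, which destabilises AU-rich mRNA, had -0.36 (adjusted p = 0.0844) and -0.65 (adjusted p = 7.20e-04). Under library totals 4 of the immediate early and 1 of the NF-kB genes were lower than in WT. Leaving out WT replicate 2, WT replicate 3, Y replicate 1, Y replicate 2 or Y replicate 3 left 9, 9, 9, 10 and 5 of the immediate early genes called, and the NF-kB count was 3 without Y replicate 3 and 5 with DESeq2.

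**Figure D5:**
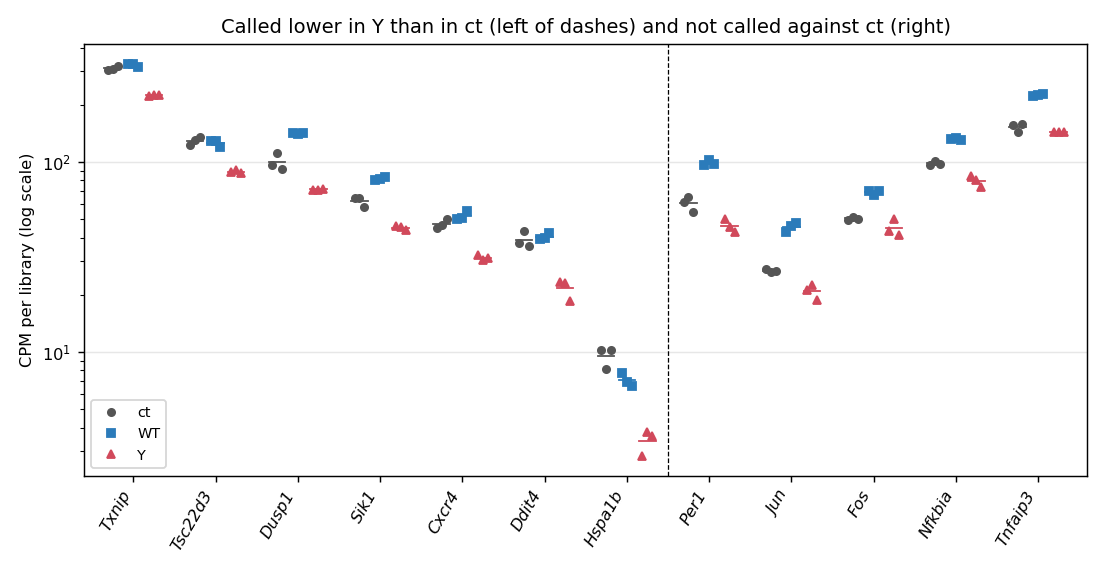
CPM per library (log scale) of 7 genes called lower in Y than in both ct and WT (left of the dashes) and of 5 genes lower than in WT but not called against ct (right), for ct (circles), WT (squares) and Y (triangles); short lines are group means. Y is below ct and WT in the left group, as for Ddit4 with 18.5 to 23.3 CPM in Y, and below WT in the right group, as for Tnfaip3 with 143 to 144 CPM in Y.

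Of 43 interferon-stimulated genes 1 was called lower than in ct, beside 0.438% of all genes, and 0 higher, beside 0.266%, and the median was -0.08. The called gene was Rsad2, viperin, an antiviral enzyme that blocks viral replication, at 26.6, 23.5 and 29.5 CPM in the ct libraries, 15.4, 16.8 and 17.96 CPM in the WT libraries and 15.1, 16.8 and 14.5 CPM in the Y libraries. Rsad2 was lower in every Y library than in every ct library, and the Y and WT libraries overlapped (log2 fold change -0.78, SE 0.11, adjusted p = 0.00218 against ct). Its Y and WT libraries overlapped (log2 fold change -0.11, adjusted p = 0.81). Isg15, a ubiquitin-like protein, was at 4.4004, 4.195 and 4.51 CPM in ct and 2.84, 4.03 and 3.36 CPM in Y (log2 fold change -0.33, adjusted p = 0.756). Ube2l6, called lower, and Slfn4 and Ifitm6, called higher, are not in the interferon-stimulated list, so its counts leave them out. Of 38 RNA and DNA sensors and adaptors 0 were called, near the 0.705% of all genes called in either direction, with a median of -0.05.

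Beside 0.705% of all genes called against ct in either direction, the lists of metabolism and basic cell functions had 0 of 80 ribosomal proteins (median 0.06), 0 of 59 nuclear genes of oxidative phosphorylation (median -0.02) and 0 of 15 mitochondrially encoded genes (median -0.02), counts that are near that share. Others had 0 of 44 splicing factors (median 0.04), 0 of 26 glycolysis and hypoxia genes (median -0.02) and 0 of 31 proteasome subunits (median 0.01). Of 19 clock genes, 11 Kruppel-like factors, 23 MHC class I and 14 MHC class II genes 0 were called against ct. Against WT, 3 of the clock genes, 4 of the Kruppel-like factors, 2 of the MHC class I and 0 of the MHC class II genes were called lower, beside 0.817% of all genes. The clock gene count against WT was 1 to 4 over the alternatives run. It was 1 with DESeq2, with library totals, and without WT replicate 2, WT replicate 3 or any 1 Y library. Of 16 genes of the endoplasmic reticulum and integrated stress response 0 were called, the median was -0.23 and 13 were negative, beside 50.9% of all genes. Hspa5, the chaperone BiP, was at 56.6, 55.1 and 60.4 CPM in ct and 52.2, 55.4 and 50.6 CPM in Y (log2 fold change -0.12, adjusted p = 0.784), and its log2 fold change against WT was -0.45 (adjusted p = 0.0109). Monocyte markers had 0 of 21 called and a median of -0.14, with 7 of 21 having all Y libraries below ct (7.55% of all genes), and 5 were lower than in WT, beside 0.817% of all genes. Csf1r, the receptor of the main monocyte growth factor, had a log2 fold change of -0.30 (adjusted p = 0.239) against ct and -0.46 (adjusted p = 0.0132) against WT. Ly6c2, a marker of classical monocytes, had -0.14 (adjusted p = 0.873) and -0.77 (adjusted p = 0.00403). The monocyte count against WT was 0 under library totals and without Y replicate 3.

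Further genes lower in Y belong to none of the lists. Ncapg2, a subunit of condensin II, which compacts chromosomes, stood at 2.14, 2.098 and 2.37 CPM in the ct libraries, 1.31, 1.52 and 0.848 CPM in the WT libraries and 0.218, 0.3904 and 0.258 CPM in the Y libraries. Ncapg2 was lower in every Y library than in every ct and every WT library (log2 fold change -2.82, SE 0.44, adjusted p = 0.00404 against ct). It had 1 to 3 counts per Y library and 14 to 20 per ct library. Igha, the heavy chain of IgA, was at 43.3, 51.5 and 38.4 CPM in the ct libraries, 28.03, 29.6 and 32.8 CPM in the WT libraries and 28.4, 29.3 and 27.1 CPM in the Y libraries. Igha was lower in every Y library than in every ct library, and the Y and WT libraries overlapped (log2 fold change -0.65, SE 0.11, adjusted p = 0.00666 against ct). Cd151, a tetraspanin, was at 10.7, 9.14 and 10.4 CPM in ct and 6.11, 5.47 and 5.29 CPM in Y (log2 fold change -0.87, adjusted p = 0.0102). Sgip1, an endocytic adaptor, was at 6.303, 8.39 and 6.998 CPM in ct and 2.4003, 3.25 and 4.13 CPM in Y (log2 fold change -1.08, adjusted p = 0.0175). Tmem158 had a log2 fold change of -1.21 (adjusted p = 0.0199), the lincRNA Gm42047 had -1.20 (adjusted p = 0.0137). Cdr2 had -0.64 (adjusted p = 0.00841), Plxna4, a semaphorin receptor, had -0.56 (adjusted p = 0.0066), Specc1 had -0.40 (adjusted p = 0.0482) and Otud7b, a deubiquitinase, had -0.37 (adjusted p = 0.0452). In none of these genes did Y differ from WT at the threshold. The calls of Specc1 and Otud7b against ct were kept in 4 and 6 of the 19 alternatives run, and lost with DESeq2 and the replicate block. The pseudogene Gm10925 was not called (adjusted p = 0.0888) and was at 139, 59.9 and 4.39 CPM in ct and 0 in all 3 Y libraries, a wide spread within ct.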

How the data were processed

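The data were 9 PBMC total RNA libraries, 3 each labelled ct, WT and Y. RNA was isolated with the Zymo Direct-zol Microprep kit and libraries were made with the NEBNext Ultra II DNA Library Prep kit, per the labels. The authors deposited RSEM expected counts and TPM values per gene and library. The submitters' processing notes name Trim Galore, STAR, featureCounts, RSEM, hg38 and mm10. The study's methods give STAR settings for reads aligned to hg38 and quantified with Kallisto and featureCounts. They were not taken to apply to these mouse libraries with RSEM values, whose settings and strand handling are not given in the sources used here. TPM values as deposited by the authors entered no test.

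The expected counts, rounded to whole numbers, were filtered with filterByExpr, which left 11635 genes. All 9 libraries were fitted together with edgeR's quasi-likelihood test after TMM normalisation (R 4.3.3, edgeR 4.0.16, limma 3.58.1), p-values were adjusted by the Benjamini-Hochberg method over all genes tested, and genes were called below 0.05. Standard errors are those of the log2 fold change. A step of simulated data recovered 62% of genes changed by a factor of 2 and 94% of genes changed by a factor of 4 for Y against ct over 11635 genes, with 9 false calls. The simulated spread followed only the fit's trend with level, without outlying genes or libraries, so recovery in the real libraries may be lower. Tables and plots were made with Python 3.11.15, pandas 2.3.3 and matplotlib 3.10.9. Alternatives were DESeq2 1.42.0, other normalisations, filters and libraries, and the replicate number as a block. Gene positions follow GENCODE M21, which matched 54587 identifiers, and promoters are those of RefSeq.

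Genes were named by rule. The rule took the 15 most changed called genes of each direction with at least 5 CPM and no overlap of Y and ct libraries. All 82 called genes met this condition on overlap. It also took the 5 with the highest level and up to 6 called members of each list by p. In lists with fewer than 2 calls it took the 2 members with the highest level. All other called genes and the uncalled genes with values were chosen after their values were seen. The members and gene lists were chosen with earlier results of these data known. A few genes are not reported here by name, and they stay in the counts of genes and lists.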

Additional observations from a re-analysis of the deposited data

How the results depend on the processing

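Counts of called genes depended on the processing, and the cause was not tested. Genes higher and lower in Y than in ct numbered 31 and 51. With no filter on low counts they were 133 and 124, with library totals the lower count was 15, and with protein-coding counts only, an alternative chosen after seeing the data, the lower count was 83. Leaving out each replicate in turn gave 17 to 116 higher and 17 to 51 lower genes. Against WT, the 51 higher and 95 lower genes became 132 and 234 with no filter, 60 lower with DESeq2, 28 lower with library totals, 78 higher in the fit of only those groups and 99 higher with protein-coding counts only. Without single replicates they were 26 to 65 higher and 26 to 112 lower.

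Library totals moved the median log2 fold change of all genes for Y against WT from 0.00098 to 0.12, and 67.1% of those calls were higher in place of 34.9%. Of the 82 called genes, 19 were called in all 19 alternatives run and 0 changed sign. Bcl11b had a log2 fold change of 0.019 with library totals, and Lyz2 had 0.013 with library totals and -0.082 to 0.063 without single replicates, against slightly negative values otherwise. The replicate numbers did not pair the libraries, with correlations of deviations from -0.061 to 0.059 over 9 pairs, and with the replicate block 33 genes were higher and 41 lower in Y than in ct. Y replicate 1 had the fewest counts, which limits the genes of a few CPM.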
